A study of Mus musculus with 12 samples.

Results

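LINE/L1 elements are the main group of long interspersed retrotransposons still able to move in the mouse genome. PIWI-interacting RNAs (piRNAs) are short RNAs that guide PIWI proteins, and in the male germ line they are known for silencing LINE/L1 and other transposons by cutting their transcripts and by directing methylation of their DNA. Germ cells make them in quantity, and in brain they are reported at low levels. The predicted piRNAs described here are those that the authors' annotation placed in LINE/L1 sequence: rows of type piRNA without a known piRNA name whose description gives LINE/L1 as the repeat family. There were 110 of them among 424 predicted piRNAs and 693 piRNAs in all, and they lay at 24 of the 114 loci that held predicted piRNAs. Membership was set by the annotation and not by treatment group. It still depends on measured counts, because a predicted piRNA has a row only in a library that listed it with at least 10 counts. A member can thus belong through a single library, and the totals and numbers listed below include such members.

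Small RNA of 18 to 30 nt from the prefrontal cortex (PFC) of adult male C57BL/6 mice was sequenced in 12 libraries, 3 in each of 4 groups, after a conditioned place preference (CPP) procedure with a test on day 10. SS mice received saline only (saline+saline), CS mice cocaine and saline (cocaine+saline), MS mice l-methionine and saline (MET+saline), and MC mice l-methionine and cocaine (MET+cocaine). L-methionine, the amino acid from which cells make their methyl donor, was given under the skin at 1 g/kg, 2 times a day for 10 days, and the PFC was taken 2 h after the test. Each library was made from RNA pooled from a pair of animals, so differences between paired animals are not seen. The values of a group are given below in the order of its replicate numbers, which were 12, 13 and 14 for SS, 8, 9 and 10 for CS, 3, 4 and 23 for MS, and 16, 17 and 20 for MC.

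Library totals were 7.77 to 11.1 times 1000000 counts, and levels are given as counts per 1000000 of these totals (CPM). The 12 libraries fell into 3 sets by their profiles of 204 miRNA precursor families, which hold no piRNA, and these sets crossed the treatment groups. Set A was SS 12, CS 8 and CS 9, set C was CS 10, MC 16 and MC 17, and set B was the 6 others: SS 13, SS 14, MC 20 and the 3 MS libraries. The set B libraries were also the deeper ones, at no less than 10.0 times 1000000 counts, against no more than 8.71 times 1000000 in the others. The labels name no batch, and because all 3 MS libraries are in set B and set A holds no library with methionine, treatment and set cannot be fully told apart.

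The tissue label held against its markers. The 5 brain miRNAs looked for were high in all 12 libraries, with a median of 109602 CPM for miR-124-3p, an abundant miRNA of neurons. Of 11 miRNAs of the male germ line, where piRNAs are most abundant, miR-743a-3p, miR-880-3p and miR-465a-5p were listed in no library, and the 6 others of the X-linked testis cluster had at most 4 counts in any library. Only miR-34c-5p (9.53 to 31.1 CPM) and miR-449a-5p (6.32 to 14.9 CPM), which other ciliated and neural tissues also make, were listed in all 12. The summed level of the 11 was 18.4 to 29.5 CPM in SS, 25.3 to 45.8 CPM for CS, 27.0 to 38.7 CPM among MS and 17.8 to 34.6 CPM among MC libraries. The 5 brain miRNAs summed to 178453 to 269833 CPM in SS, 136736 to 243349 CPM for CS, 122188 to 252924 CPM among MS and 102872 to 144177 CPM among MC libraries. The 3 red blood cell miRNAs summed to 1496 to 3972 CPM in 11 libraries and to 387 CPM in MC 16, and miR-122-5p of liver ranged from 9.04 to 2494 CPM, highest in an MS library. The part of these differences in the LINE/L1 levels was not tested. In a tissue of mixed cells, fewer cells of a type and less RNA per cell cannot be told apart.

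The LINE/L1 loci were spread over 14 chromosomes, with 16 on the plus and 8 on the minus strand, and spanned 139 to 2181 bp (median 519). Coordinates are those of the deposited tables, whose build the submitters' processing notes name as mm10. How reads that match several copies of a repeat were placed is not given in the sources used here. The position, strand and host gene of a locus are therefore those of the deposited annotation and may not be where its RNA arose. Of the 24, 12 lay between genes and 12 in introns, 5 in the sense and 7 in the antisense direction to the host gene, and 0 touched an exon. Among the 90 loci of other repeat families, 52.2% were intergenic, 25.6% intronic and 22.2% exonic, and their median span was 245.5 bp. The hosts included several genes of nerve cells: Trpm3, a cation channel opened by heat and neurosteroids, Gabrg3, a subunit of the GABA-A receptor, Kcnip4, a partner of A-type potassium channels, Cacna2d3, an auxiliary subunit of calcium channels, and Ptbp2, a splicing regulator of neurons. The predicted piRNAs ran in the sense direction of Trpm3, Gabrg3 and Ptbp2 and against Kcnip4 and Cacna2d3. The other hosts were Slc22a22, Adgrv1, Wwox, Gm35722, Tom1l2 and Glis3. What kinds of gene host the loci of other families was not compared.

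Members were unevenly shared among loci. A single predicted piRNA stood at 17 loci, and the 7 others held 93 of the 110. The locus on chr15 had 34, the locus on chrX had 26, and the more crowded of a pair of loci in Trpm3 had 16, so that these 3 held 69.1% of the members but 36.7% of the 5665 LINE/L1 counts. At the Trpm3 locus, 16 members share 164 bp. Set end to end at the shortest length sequenced, 18 nt, they would need 288 bases, so members there must overlap and are not independent measurements. Counts were therefore summed per locus and library. The 8 loci with the largest sums held 91.1% of all counts, and the other 16 had 10 to 111 counts each over the 12 libraries together.

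A predicted piRNA of any family was listed with no fewer than 10 counts, whereas known piRNAs were listed from 1 count, so a predicted piRNA that is not listed in a library may have had up to 9 counts there (0.812 to 1.16 CPM). Most LINE/L1 listings were close to that limit. Of 259 listings, 61.4% had 10 to 15 counts, against 30.0% of 1746 listings of the other families, and the median was 14 against 24. Most members, 59 of 110 (53.6%), were listed in a single library, 43 in 2 to 5 libraries and 8 in at least 6, and 3 (2.73%) were listed in all 12. For the 314 predicted piRNAs of other families, the shares listed in 1 and in 12 libraries were 29.0% and 19.7%. MC 16 alone listed 40 members found nowhere else, and 5 were found only in SS 12.

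LINE/L1 predicted piRNAs made up 22.1 to 158 CPM of a library, a 7.15-fold range with a mean of 54.0 ± 39.0 (SD, n = 12). The SS libraries had 86.4, 23.9 and 29.7 CPM, the CS libraries 54.2, 67.7 and 64.7, the MS libraries 24.9, 22.1 and 38.6, and the MC libraries 158, 55.6 and 22.2. The number of members listed ran with these levels, at 38, 9 and 10 in SS, 27, 30 and 20 in CS, 11, 11 and 10 in MS, and 62, 18 and 13 in MC. This is partly built in, because each member listed adds at least 10 counts to the total. The CS and MS libraries did not overlap, whereas SS and MC each held both high and low libraries. Exact binomial 95% intervals, which cover counting error only, were narrow beside these gaps: 149 to 167 CPM in MC 16 and 19.3 to 25.2 in MS 4, the lowest. All 6 libraries of set B (22.1 to 38.6 CPM) lay below the 3 of set A (54.2 to 86.4) and the 3 of set C (55.6 to 158). These totals leave out members not listed in a library. With each unlisted member counted as 9, the most it can have had, totals ran from 102 CPM in MC 20 to 214 in MC 16. That range is much narrower in proportion, with the 6 libraries of set B still the lowest. The listing limit may thus account for part of the range of the listed totals, which was not tested.

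**Figure D1:**
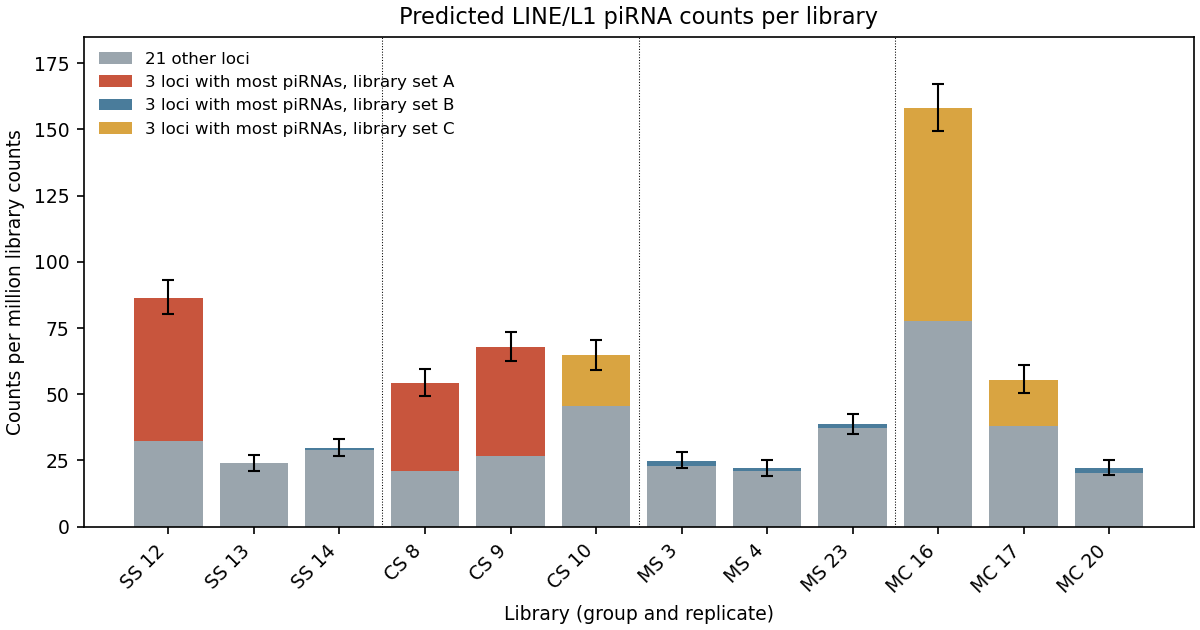
Level in CPM of predicted LINE/L1 piRNAs in each of the 12 libraries, with exact 95% intervals of counting error on the whole bar. Grey is the 21 loci with fewer piRNAs, and colour is the 3 loci with most piRNAs, coloured by library set. The coloured part is 33.0 to 54.1 CPM in set A and at most 2.02 in set B.

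The spread of the listed totals between libraries was wider than for the other large families of predicted piRNAs. The families are not alike in their distance from the listing limit. Of LINE/L1 listings 61.4% had 10 to 15 counts, against 30.0% over all other families. The part of that limit in the wider spread was not tested. The coefficient of variation over the 12 libraries was 72.3% for LINE/L1, 17.8% for LTR/ERVK, 40.5% for LTR/ERVL-MaLR and 20.6% for LTR/ERV1, which are families of endogenous retroviruses and related elements with long terminal repeats. Without MC 16 the values were 50.1%, 18.7%, 27.7% and 19.5%. MC 16 also stood apart in measures outside the LINE/L1 members. Exon fragments made up 16.1% of its counts, against 7.40% to 10.9% in the 11 others, and it had the lowest level of miR-9-5p and miR-451a. The part of these features in its LINE/L1 level was not tested.

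The 3 crowded loci held much of the difference between set B and the other sets, but not the whole of it. They gave 60.8% to 62.6% of the LINE/L1 counts in set A, 29.3% to 50.9% in set C, and 0% to 9.09% in set B. The other 21 loci together ranged from 20.2 CPM in MC 20 to 77.5 in MC 16, with 23.9, 28.8 and 32.3 CPM among the SS libraries. In set A these 21 loci had 21.1 to 32.3 CPM and in set B 20.2 to 37.3, so those 2 sets overlapped there, whereas set C had 38.0 to 77.5. CS 10, for instance, had 18.9 CPM at the crowded loci and 45.7 at the others. The 3 crowded loci were picked by their number of members, and a library with more counts at a locus can list more members there. Their larger share in sets A and C is therefore partly built in by that choice.

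The locus at chrX:21679356-21680794, on the minus strand 34102 bp from Slc6a14, an amino acid transporter, showed the sharpest division. It had 320 counts in SS 12, 201, 253 and 12 in CS, and 58 in MC 16, and was not listed in any MS library or in the remaining SS and MC libraries. That is 23.7 to 38.9 CPM in set A and no listed count in set B. Of its 26 members, 21 were listed in set A and 11 in all 3 libraries of that set. MC 16 listed 4 members of the locus, of which 0 were among those 21.

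At chr15:57432781-57433818, in an intron of Slc22a22 and antisense to it, 115 counts in SS 12 stood against none listed and 10 in SS 13 and 14. The CS libraries had 68, 106 and 22, the MS libraries 20, 10 and 13, and the MC libraries 372, 11 and 22. Slc22a22 is an organic anion transporter known for carrying prostaglandins. The high libraries were again those of set A, joined by MC 16, but with other members: 6 of the 34 were listed in set A and 29 in MC 16, 2 were in both, and 25 were listed in MC 16 alone. A single member, novel_pir293, was spread over all groups. It had 22, none listed and 10 counts in SS, 13, 23 and 12 in CS, 10, 10 and 13 in MS, and 19, 11 and 12 in MC.

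The crowded Trpm3 locus, chr19:22852132-22852295 on the plus strand, followed set C. CS 10, MC 16 and MC 17 had 121, 195 and 129 counts, SS 12 and CS 8 had 10 and 11, and the 7 others had none listed. In set C, 15 of its 16 members were listed, 6 of them in all 3 libraries. Its neighbour 161 bp away, chr19:22851630-22851970 with 6 members, had no such division. There the counts were 46, 19 and 18 in SS, 10, 24 and 38 in CS, 15, 24 and 41 in MS, and 44, 25 and 24 in MC, so all 4 groups overlapped.

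**Figure D2:**
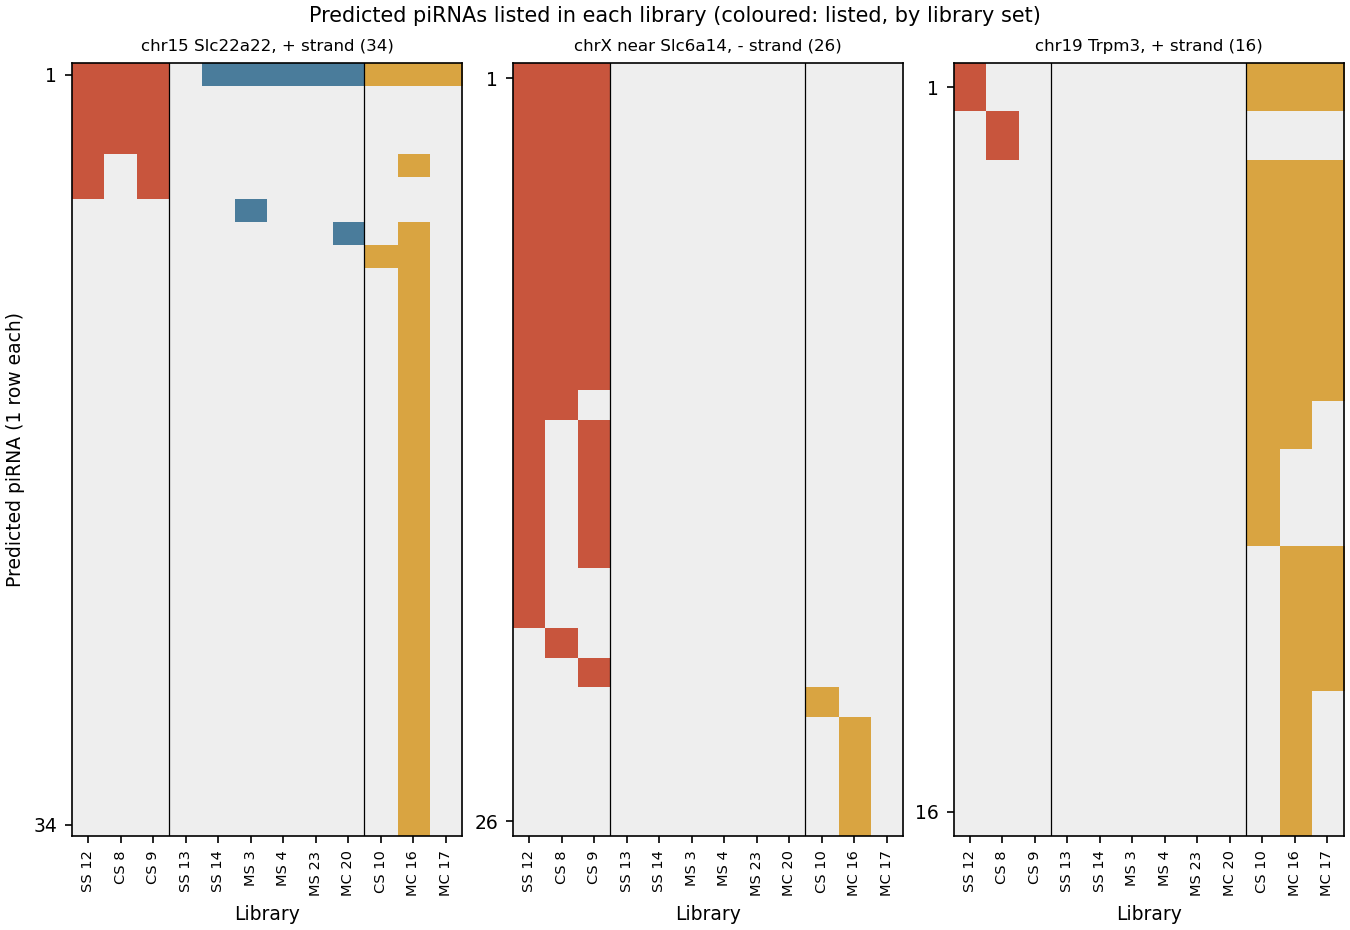
Listing of each predicted piRNA (1 row each) of the 3 loci with most members, in the 12 libraries ordered by set A, B and C and separated by vertical lines. Colour marks a listed piRNA. On chrX 21 of 26 rows are filled in set A and 0 in set B, on chr15 the long column is MC 16 with 29 of 34, and in Trpm3 15 of 16 are filled in set C.

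The locus with the largest sum, chr2:90394491-90395211 on the plus strand, 3472 bp from Olfr1274-ps, also ran highest in set C. Olfr1274-ps is named as an olfactory receptor pseudogene, but the gene annotation used types it as protein-coding. The counts of the locus were 63, 31 and 154 in SS, none listed, 29 and 192 in CS, 77, 34 and 151 in MS, and 329, 159 and 16 in MC. In CPM, set C had 19.9 to 42.4, set A up to 7.66 and set B 1.47 to 14.5. Of its 1235 counts, 1181 were of novel_pir532, the most abundant member, which had the same counts as the locus in 10 libraries, with 30 of the 63 in SS 12 and 308 of the 329 in MC 16. Each treatment group held both a high and a low library of this piRNA, and the groups overlapped.

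The 3 loci with the smallest variation between libraries had 1 or 2 members, although the 15 other loci of that size were listed in at most 8 libraries and varied more. At chr2:7610421-7611010, on the minus strand 20066 bp from the pseudogene Gm13210, the counts were 59, 48 and 42 in SS, 61, 75 and 50 in CS, 39, 36 and 39 in MS, and 66, 36 and 53 in MC. In CPM this was 5.25 ± 1.74 for SS, 7.31 ± 1.25 for CS, 3.64 ± 0.105 for MS and 5.96 ± 2.21 for MC (SD, n = 3 each). All 3 MS libraries (at most 3.75 CPM) lay below all 3 SS libraries (at least 3.79 CPM), by a margin smaller than the spread within SS. Most of these counts were of novel_pir484, with 59, 36 and 28 in SS, 50, 75 and 40 in CS, 27, 25 and 39 in MS, and 51, 36 and 37 in MC. The other member, novel_pir485, was listed in 8 libraries, with 12 and 14 counts in SS 13 and SS 14, 11 and 10 in CS 8 and CS 10, 12 and 11 in MS 3 and MS 4, and 15 and 16 in MC 16 and MC 20.

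At chr10:101190755-101191300, on the plus strand 80321 bp from Gm19233, the only member, novel_pir150, had 42, 65 and 32 counts in SS, 38, 54 and 56 in CS, 60, 41 and 68 in MS, and 76, 26 and 36 in MC. At chr16:7442468-7443260, on the minus strand 30942 bp from Rbfox1, a splicing regulator of neurons, novel_pir346 had 21, 31 and 31 in SS, 23, 21 and 28 in CS, 21, 33 and 31 in MS, and 11, 37 and 32 in MC. Both were listed in all 12 libraries and overlapped among all groups, with coefficients of variation of 36.5% and 28.1% in CPM. MC 16 was the highest library for novel_pir150 and the lowest for novel_pir346. With novel_pir484 they were the 3 members listed in every library. Another 3 members, novel_pir532, novel_pir293 and novel_pir430, were listed in 11. Of these novel_pir430, at the quieter Trpm3 locus, had 32, 19 and 18 counts in SS, none listed, 24 and 27 in CS, 15, 24 and 41 in MS, and 10, 13 and 24 in MC, and its groups overlapped.

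**Figure D3:**
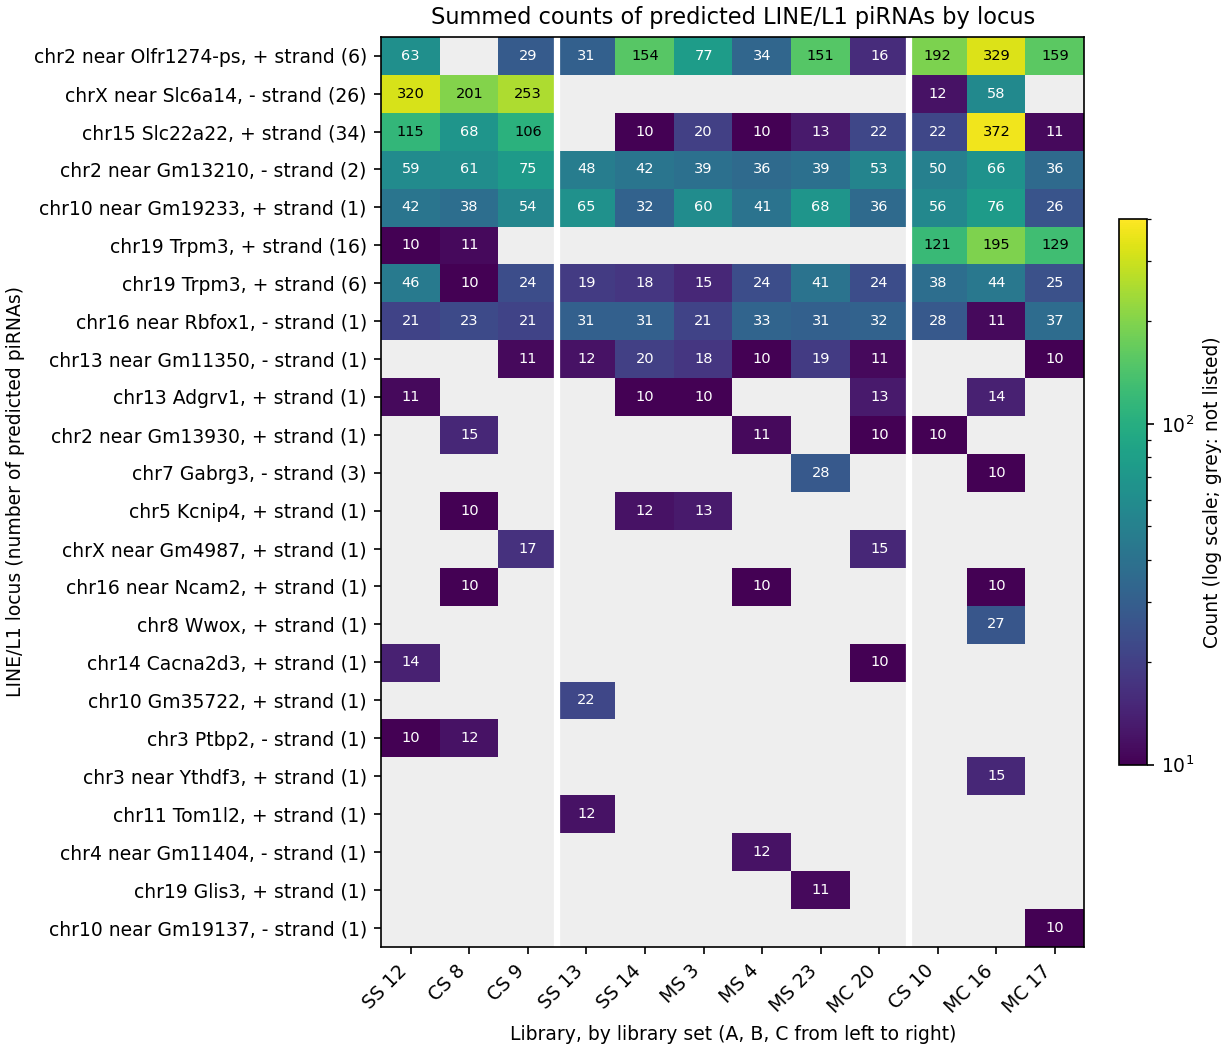
Summed counts of predicted piRNAs at the 24 LINE/L1 loci (rows, by falling sum, with the number of members) in the 12 libraries (columns, by set A, B and C), on a log colour scale, with light grey for not listed. The chrX row is filled in set A and 2 libraries of set C, the crowded Trpm3 row mainly in set C, and 4 rows are filled in all 12 libraries.

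Among the smaller loci, chr13:25714195-25714377, on the minus strand 33052 bp from Gm11350, was listed in 8 libraries, including all 6 of set B. Its member, novel_pir225, had 12 and 20 counts in SS 13 and SS 14, 11 in CS 9, 18, 10 and 19 in MS, and 10 and 11 in MC 17 and MC 20. At chr13:81163384-81163761, antisense in an intron of Adgrv1, an adhesion receptor needed for hearing, novel_pir226 had 11, none and 10 counts in SS, none in the 3 CS libraries, 10 in MS 3, and 14 and 13 in MC 16 and MC 20. At chr2:111731472-111733652 near Gm13930, counts of 10 to 15 were listed in CS 8, CS 10, MS 4 and MC 20. All of these values were between 10 and 20 counts, so that a listed and an unlisted library may differ little.

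The remaining loci held few counts. Members in Gabrg3 were listed in MS 23 (28) and MC 16 (10), in Kcnip4 in 3 libraries, in Cacna2d3 in SS 12 and MC 20, in Ptbp2 in SS 12 and CS 8, near Ncam2, a neural cell adhesion gene, in 3 libraries with 10 counts each, and near Gm4987 in CS 9 and MC 20. A single library listed 7 of the loci. The largest of these were chr8:114809333-114809570 in an intron of Wwox with 27 counts in MC 16, chr10:100739272-100739410 in an intron of the non-coding RNA Gm35722 with 22 in SS 13, and chr3:16462149-16463208 with 15 in MC 16. The others, in Tom1l2 and Glis3 and near Gm11404 and Gm19137, had 10 to 12.

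The number of members that a pair of libraries had in common was nearly the same within sets (median 8) and across sets (median 7). The median share of a library's list that was also listed in the other was 70.0% over the 21 pairs within a set and 36.9% over the 45 pairs across sets. By treatment the medians were 61.8% over the 12 pairs within a group and 54.9% over the 54 pairs across groups. The share depends on how long the lists are, and set B holds the short lists. The pairs share libraries, and these values are given without a test.

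The first question was whether the LINE/L1 total differed among the treatment groups. Group means were 46.7 ± 34.5 CPM for SS, 62.2 ± 7.12 for CS, 28.5 ± 8.84 for MS and 78.6 ± 70.8 for MC (SD, n = 3 each), and the spread within SS and MC was as large as the gaps between means. An exact permutation test over all 369600 groupings gave F = 0.868 and p = 0.509. For the number of members listed the same exact permutation test gave F = 0.903 and p = 0.485.

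Libraries with methionine (MS and MC) and without it (SS and CS) had nearly the same mean total, 53.5 ± 52.8 against 54.4 ± 23.9 CPM (SD, n = 6 each), a difference of −0.890 with p = 0.95 in a two-sided exact permutation test within the cocaine levels (400 arrangements). Without MC 16 the difference was −20.4 CPM (exact permutation p = 0.11) and −9.15 members listed (exact permutation p = 0.125). Only 2 of the 6 methionine libraries exceeded the mean of the others. The mean number of members listed was 20.8 with methionine and 22.3 without (difference −1.5, exact permutation p = 0.885).

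With cocaine (CS and MC) the mean total was 70.4 ± 45.9 CPM, against 37.6 ± 24.6 without it (SS and MS; SD, n = 6 each). The difference of 32.8 did not pass the two-sided exact permutation test within the methionine levels (p = 0.155, 400 arrangements), although 5 of 6 cocaine libraries exceeded the mean of the others. Members listed numbered 28.3 with cocaine and 14.8 without (difference 13.5, exact permutation p = 0.15). The result moved with single libraries in both directions. Without MC 16 the difference fell to 13.2 CPM (exact permutation p = 0.31) and 5.85 members (exact permutation p = 0.275). Without SS 12 the difference was 43.5 CPM (exact permutation p = 0.02) and 18.5 members (p = 0.005, the smallest the 200 arrangements can give), and without MC 20 it was 43.4 CPM (p = 0.05) and 16.7 members (p = 0.09). Within the library sets the cocaine difference turned to −14.5 CPM, but this value cannot settle the direction. Set C holds cocaine libraries only and adds nothing to it. In set A only SS 12 was without cocaine, and in set B only MC 20 had it. With 18 arrangements no difference, however large, could pass the exact permutation test. SS 12 exceeded both CS libraries of its set, and MC 20 was near the lowest of its own.

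In the pairwise comparisons CS exceeded SS by 15.5 CPM, MS was lower than SS by a difference of −18.1, and MC exceeded CS by 16.4, with exact permutation p of 0.4, 0.6 and 0.9 (0.9 each after Benjamini-Hochberg adjustment over the 3). An exact permutation test of 3 against 3 cannot go below p = 0.10. SS 12 and MC 16 moved these differences most. Leaving out SS 12 changed them to 35.4 for CS against SS and 1.72 for MS against SS, and leaving out MC 16 changed that of MC against CS to −23.3.

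Single predicted piRNAs and loci were tested with edgeR's quasi-likelihood F-test across all piRNAs (281 tested, 33 of them LINE/L1) and across all loci together with known piRNAs (136 tested, 13 of them LINE/L1). The 33 and 13 are those that reached 5 counts in 3 or more libraries, so the members listed in 1 or 2 libraries are not among them. The threshold for a call was an adjusted p no higher than 0.05 together with a log2 fold change of 1 or more in either direction. No LINE/L1 piRNA and no LINE/L1 locus was called by edgeR in any of CS vs SS, MS vs SS, the comparison of MC with CS, or the interaction of the treatments, and the share called among all features tested was 0% in each.

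At an unadjusted p under 0.05, 0 of the 33 LINE/L1 piRNAs passed in any comparison, beside 1.07% of all piRNAs tested in CS vs SS, 3.56% in MS vs SS, 4.63% in MC vs CS and 2.49% in the interaction. Among LINE/L1 loci, 1 of 13 passed in MS vs SS, and 0 in CS vs SS, MC vs CS and the interaction. Over all loci and known piRNAs tested together, the shares were 3.68%, 1.47%, 3.68% and 2.21%, in that order. Groups that did not overlap in CPM were found for 0 of the 33 piRNAs, against 6.05%, 9.61% and 8.19% of all piRNAs in CS vs SS, in MS vs SS and in MC vs CS. For loci the count was 0 of 13 in CS vs SS (all 7.35%) and in MC vs CS (all 6.62%), and 1 of 13 in MS vs SS (all 11%). That locus was chr2:7610421-7611010, whose log2 fold change was −0.58 (SE 0.43, edgeR adjusted p = 0.735).

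By direction, 26 of the 33 piRNAs tested were higher in CS than in SS and 7 lower, and in MS against SS 7 were higher and 21 lower, with 5 listed in neither group. In MC against CS 11 were higher and 22 lower. The median log2 fold changes were 0.68, −1.13 and −0.52, beside 0.22, −0.14 and −0.03 over all piRNAs tested. Most of the 33 belong to the crowded loci and move together, and the comparisons of CS and of MS with SS use the same control libraries, so these counts are no independent evidence of a direction. Over all 110 members, without a count filter, 42 were higher and 18 lower in CS vs SS, 13 higher and 37 lower in MS vs SS, and 59 higher and 39 lower in MC vs CS, so the balance in MC vs CS turned. The 110 include 40 members listed in MC 16 alone. With library set as a covariate, the 3 medians over the 33 were −0.12, −0.02 and 0.12.

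The locus with an unadjusted p under 0.05 was the one on chrX, which had 320 counts in SS 12 and none listed in the other SS and the MS libraries (edgeR adjusted p = 0.702). Without SS 12 no count is left on either side of that comparison. The call depended on the method. DESeq2 called this locus in MS vs SS (adjusted p = 1.73e-09) and in the interaction (adjusted p = 0.00349), and edgeR without a count filter called it in MS vs SS (adjusted p = 3.13e-09), MC vs CS (adjusted p = 0.0182) and the interaction (adjusted p = 0.0390). No other LINE/L1 locus and no LINE/L1 piRNA was called under any of the settings tried. Fold changes against a group with no listed count rest on the count the model adds. They enter the medians by direction above and the values of the chrX locus under other settings below, and are otherwise not given.

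The smallest p of the other comparisons belonged to the Adgrv1 locus on chr13, whose member was listed in SS and MC libraries but in no CS library. Its edgeR adjusted p was 0.990 in CS vs SS, 0.835 in MC vs CS and 0.979 in the interaction. Among single piRNAs, novel_pir226 of that locus had the smallest p in CS vs SS (edgeR adjusted p = 0.894) and in the interaction (edgeR adjusted p = 1.00). In MS vs SS it was novel_pir819 (edgeR adjusted p = 0.515) and in MC vs CS novel_pir821 (edgeR adjusted p = 0.505), both of the chrX locus. The first had 31, 32 and 24 counts in SS 12, CS 8 and CS 9, and the second 26, 29 and 27, with no listing elsewhere. The same 3 libraries, set A, were the only ones to list novel_pir324 of the chr15 locus, at 28, 25 and 29 counts.

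**Figure D4:**
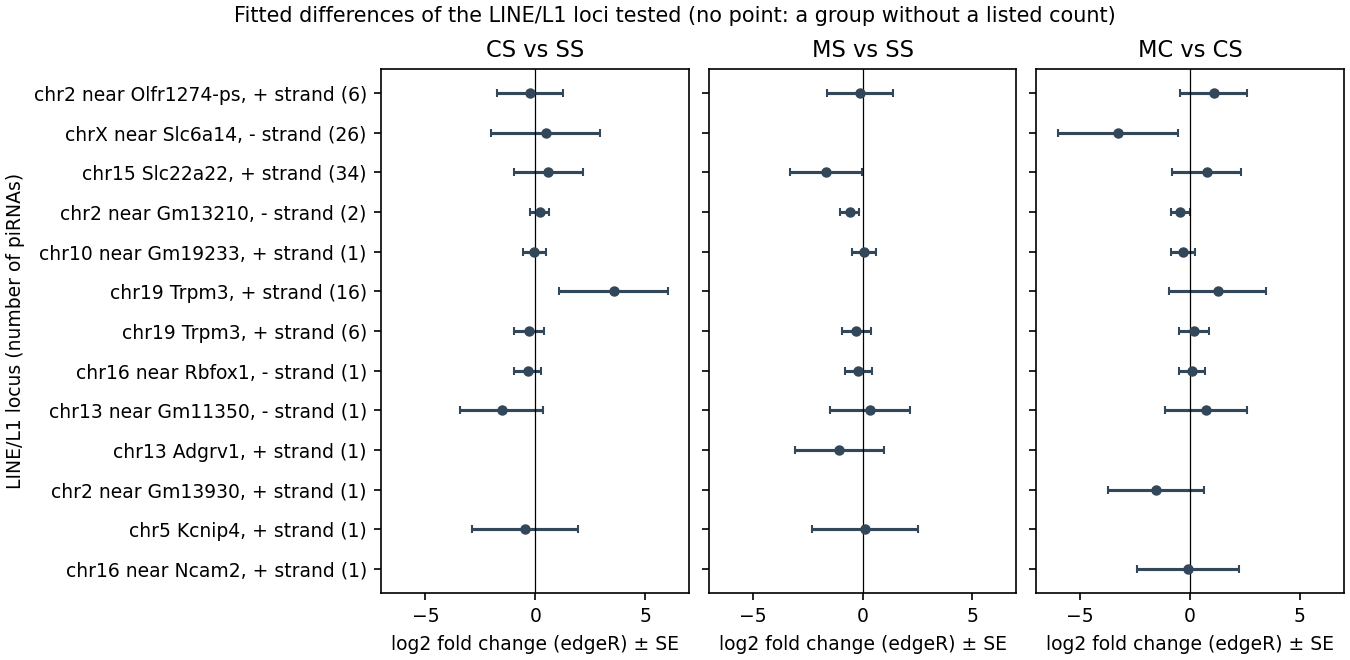
Log2 fold changes ± SE from edgeR for the 13 LINE/L1 loci tested, with a panel each for CS vs SS, for MS vs SS and for MC vs CS. No point is drawn where a group had no listed count, which leaves 10, 9 and 11 loci. The 4 loci listed in all 12 libraries, on chr2 near Gm13210, chr10, chr16 and the quieter one in Trpm3, have the shortest bars, and the other loci, crowded or not, have longer ones.

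For the loci listed in all 12 libraries the fitted differences had smaller errors. The locus near Gm19233 differed by a log2 of −0.04 (SE 0.54) in CS vs SS, 0.07 (SE 0.54) in MS vs SS and −0.31 (SE 0.54) in MC vs CS. The values near Rbfox1 were −0.34 (SE 0.61), −0.19 (SE 0.60) and 0.10 (SE 0.61), and at the quieter Trpm3 locus −0.29 (SE 0.68), −0.28 (SE 0.68) and 0.19 (SE 0.68). The adjusted p of edgeR was at least 0.938 for each of these 9 values. The locus near Gm13210, also listed in all 12, had 0.21 (SE 0.43), −0.58 (SE 0.43) and −0.45 (SE 0.43). Its edgeR adjusted p was 0.990, 0.735 and 0.938. At the other end, the crowded Trpm3 locus had 3.58 (SE 2.48) in CS vs SS, with 121 of the 132 CS counts in CS 10, and the chr15 locus −1.65 (SE 1.63) in MS vs SS.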

How the data were processed

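Each library's table was deposited with, for every small RNA listed, a count of reads and a TPM value. The authors removed low-quality and adapter reads, mapped what was left with AASRA, and, after setting aside reads that matched miRNA, rRNA or tRNA, searched piRBase with Bowtie at 1 mismatch. The submitters' processing notes name mm10 and Bowtie. How predicted piRNAs were found is not given in the sources used here. The deposited counts were not normalized. The TPM deposited by the authors equals the count per 1000000 of the library total within 0.005 and was used only for that check. Predicted piRNAs of LINE/L1 were taken by their annotation and summed per locus (chromosome, strand, start and end). Genes come from GENCODE vM21. The sequences of the members were not analysed here, so no sequence feature is given.

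The test was edgeR's quasi-likelihood F-test (edgeR 4.0.16, R 4.3.3) on counts, with TMM factors (library size the total count, 1 coefficient per group, Benjamini-Hochberg adjustment over all features tested, at least 5 counts in 3 libraries). Calls needed an adjusted p no higher than 0.05 and a log2 fold change of 1 or more either way, with no fold limit for the interaction. Totals were compared with exact permutation tests. SE is the absolute log2 fold change divided by the square root of F. Python 3.11.15, numpy 2.4.6, pandas 2.3.3, scipy 1.17.1 and matplotlib 3.10.9 were used for the rest. Steps were tested on simulated data without a listing limit, so those tests do not show how the steps perform near it. Duplicate libraries were looked for over 514 miRNAs: in all 66 pairs chi-square per degree of freedom was at least 158. The methods of the study describe the 3 libraries of a group as biological replicates, each from a pool of animals, so p-values rest on the spread between pools.

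The members, gene lists and rules were chosen with earlier results of these data known. Values per library are given for the 8 loci with the largest sum, the locus with most members and the loci with the smallest p, and for single piRNAs the 10 largest (2 share the tenth place), the 5 listed most often and those with the smallest p. The 3 largest loci listed in 1 library are named too, and the others by host gene. Alternatives were DESeq2 1.42.0, no TMM factors, other count filters, no fold limit, library set as a covariate (sets from clustering log2 CPM of precursor families, pseudocount 0.5), 6 libraries per fit, other denominators and scales for the totals, unlisted members counted as 9, and each library left out in turn. Totals over the 21 less crowded loci were added after seeing the data.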

Additional observations from a re-analysis of the deposited data

How the results depend on the processing

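No paired analysis was possible because the replicate numbers of the labels are not shared between groups. No LINE/L1 piRNA was called under any setting. The count of LINE/L1 loci called rose from 0 to 1, the chrX locus, in MS vs SS without a count filter and with DESeq2, in MC vs CS without a filter, and in the interaction without a filter and with DESeq2. With the library sets in the model, its log2 fold change turned to 0.17 in MS vs SS and 0.97 in MC vs CS, and without 1 library it ran from −10.5 to 0 in MS vs SS and from −3.60 to 7.18 in the interaction (−0.47 without MC 16). No MS library had a listed count at this locus, so its MS vs SS and interaction values rest on the count the model adds. The cause of these changes was not tested.

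For the total, the MC vs CS difference turned to −0.359 percentage points as a share of all piRNA counts and to −0.0944 on the log2 scale. The methionine difference turned to 5.17 CPM, and that of MS vs SS to 0.745, over members listed in at least 6 libraries, and the methionine difference to 6.46 over the 21 less crowded loci and 14.1 within library sets, where cocaine gave −14.5. Counting members with at least 20 counts gave −0.333 in CS vs SS and −2 in MC vs CS. With 1 library left out, F ran from 0.569 to 2.30, and the difference from −20.4 to 9.86 CPM for methionine, 13.2 to 43.5 for cocaine, 4.14 to 35.4 for CS vs SS, −29.5 to 1.72 for MS vs SS and −23.3 to 44.6 for MC vs CS. In members listed it ran from −9.15 to 3.48 for methionine, 5.85 to 18.5 for cocaine, 1.67 to 16.2 for CS vs SS, −13.3 to 1.17 for MS vs SS and −10.2 to 14.3 for MC vs CS. Of the alternatives for the totals, listings and counts of calls, 307 kept their direction and side of the threshold, 21 changed direction and 8 passed a threshold that the value as reported did not. Many of the 307 had no direction to change, being F values or counts of 0 calls. Others left out a library outside the pairwise comparison, which leaves its difference as it was. The tally is therefore no measure of how firm the results are. The planned settings for sequence features were not run. Most members sit near the listing limit of 10 counts, so presence or absence of a single member is weakly determined at this depth.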

Other observations

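Among 61 loci of other families, the 3 whose level followed the LINE/L1 total most closely over the 12 libraries (Pearson r of log2 CPM, pseudocount 0.1, given as a description since all points share the same libraries and depths) were a pair of LTR/ERV1 loci and an LTR/ERVL-MaLR locus. The LTR/ERV1 loci were chr12:20782914-20784507 near 1700030C10Rik (r = 0.845, Spearman's rho = 0.839, r = 0.700 without SS 12 and MC 16) and chr11:28648974-28649371 near 2810471M01Rik (r = 0.845, rho = 0.790, r = 0.724 without them). The LTR/ERVL-MaLR locus was chr10:42856810-42856927 near Scml4, with 21 members (r = 0.763, rho = 0.689, r = 0.671 without them). Its counts were 261 in SS 12, 174, 161 and 36 in CS, 10 in MS 23, and 143 and 14 in MC 16 and MC 20, with none listed in the other 5 libraries. Like the chrX LINE/L1 locus it was crowded and high in SS 12, CS 8 and CS 9.

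The high level of MC 16 was not particular to LINE/L1, but not every family shared it. Predicted piRNAs of LINE/L2 gave 120 CPM in MC 16 and 27.1 to 65.7 CPM in the 11 other libraries, and those of LTR/ERVL-MaLR 594 CPM against 173 to 374. For LTR/ERVK (155 CPM in MC 16, 112 to 181 in the others) and LTR/ERV1 (765 CPM, 403 to 788 in the others), MC 16 lay within the range of the others. LINE/CR1 went the other way, with 13.9 CPM in MC 16 and 75.4 to 116 CPM in the others.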
